A study of Danio rerio with 18 samples.

Results

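The response to MiR430 microRNA injected into wild type zebrafish (Danio rerio) embryos was described at the 1024-cell stage, across all genes for which the authors' deposited table of that comparison gives a p-value. These were 16996 of the 17135 genes in the table. Every embryo of the study received s4UTP, a modified nucleotide built into RNA made after the injection, and the labelled RNA was captured through biotin and chemically converted before sequencing (enriched SLAM-seq). The compared groups were 3 libraries of whole embryos given s4UTP together with MiR430 microRNA and 3 libraries of whole embryos given s4UTP alone, called untreated here. The same treatments, and another with s4UTP and cdk9 mRNA, were also sampled at the 256-cell stage, for 18 libraries in 6 groups of 3 biological replicates. All groups carried the wild type genotype. Values per library are not shown, because the columns that hold them match no sample label. The authors' own fold changes and errors for MiR430 against untreated embryos stand in their place. The 4 deposited comparisons give the same mean for each gene, so the authors' fit may have used all 18 libraries. If so, the errors draw on the spread in all 6 groups, not only on the 3 against 3 libraries. No group received a control RNA, so an effect of injected RNA as such and an effect of MiR430 cannot be told apart. The sources used here do not give the amount or form of the injected MiR430, or whether the counts hold all reads or only converted ones.

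miR-430 is the microRNA family that zebrafish embryos make in large amounts at the maternal-to-zygotic transition, where it pairs with the 3′ untranslated regions of many maternal mRNAs and promotes their deadenylation and decay. Its genes form a cluster of near-identical copies on chromosome 4. That cluster is among the first genes to be transcribed in the embryo, and nuclear transcription bodies, sites of concentrated RNA polymerase II, form on it. The series concerns the loss of the 2 major transcription bodies and the kinase CDK9, the catalytic subunit of the elongation factor P-TEFb.

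Few genes passed the test, and nearly all of those were higher in MiR430 embryos. In the authors' deposited table, 109 of 10748 genes with an adjusted p rose (1.01%) and 6 fell (0.0558%), with 0.05 as the threshold on the adjusted p. Replication-dependent histone genes, 5 mir-430 genes, immediate early genes, and genes of RNA processing, translation and the cell cycle were among those that rose. The rises were large, between 0.91 and 4.54 in log2 fold change with a median of 2.55, but each was measured loosely, with a median standard error of 1.12. For 6 of the 109 the deposited log2 fold change was smaller than its own standard error, and for these the sign is the most that can be read. The 6 falls had a median log2 fold change of -2.15. At an unadjusted p under 0.05, 1021 of 16996 genes were higher (6.01%) and 280 were lower (1.65%). The median log2 fold change of all tested genes was 0.01. By the stricter marking in the authors' deposited table (adjusted p under 0.01 and absolute log2 fold change above 2), 21 genes rose and 0 fell; no count model was run here. Embryos were sampled whole, so more cells of a type and more RNA per cell cannot be told apart in any of these differences.

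**Figure D1:**
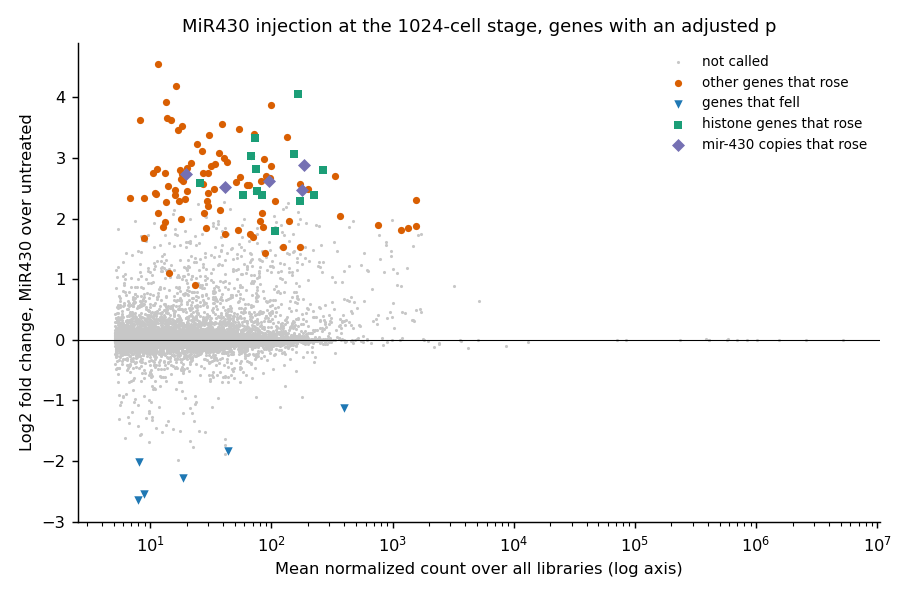
Each point is a gene with an adjusted p, by its mean normalized count over all 18 libraries (horizontal, log axis) and the deposited log2 fold change of MiR430 over untreated embryos at the 1024-cell stage (vertical). Coloured points are the 109 genes that rose (histone and mir-430 genes with symbols of their own) and the 6 that fell; the rises lie between 0.91 and 4.54.

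The cdk9 gene did not pass the test. In the authors' deposited table, cdk9 had a log2 fold change of 0.03 (adjusted p = 0.812, SE 0.15) in MiR430 embryos, where embryos given cdk9 mRNA had 5.88 (SE 0.39) against the same untreated libraries. Whether the injected cdk9 mRNA itself entered these counts was not tested. The only level per gene that could be used is the mean normalized count over all 18 libraries of both stages, with a median of 22.4 for the tested genes. It pools the injected and untreated libraries, so a gene that is high after either injection has a higher mean for that reason.

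Core histones package DNA into nucleosomes, and their replication-dependent genes are short, intronless and present in many near-identical copies. Of 55 measured histone genes, 43 of which lie on chromosomes 7 and 25, 13 rose, 0 fell and 42 did not pass in the authors' deposited table, against 1.01% of all tested genes. At an unadjusted p under 0.05, 30 histone genes were higher (54.5%, against 6.01% of all genes) and 0 lower. The rises ran from 1.80 to 4.05 in log2 fold change. hist1h2ba, which codes for a core histone H2B (chromosome 25, 35048945 to 35049318, GRCz11), had the highest of them in the authors' deposited table, with 4.05 (adjusted p = 0.000139, SE 0.86). hist1h2a2, a core histone H2A on chromosome 7 (6463626 to 6464225), rose by a log2 fold change of 3.07 (adjusted p = 0.00658, SE 0.80) per the authors' deposited table. A core histone H3 gene, hist2h3c, had 2.80 (adjusted p = 0.0129, SE 0.87) per the authors' deposited table. Under the symbol hist1h4l, for histone H4, the table lists 24 copies, of which 7 rose with log2 fold changes from 2.38 to 3.33. The H2A genes hist1h2a11 (2.39, adjusted p = 0.0289) and hist1h2a6 (2.29, adjusted p = 0.0387) also rose in the authors' deposited table. Reads from near-identical copies can be shared out among them, so the copies are not independent of each other and the copy of origin is uncertain.

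All but 1 of the 13 histone rises lay on chromosomes 7 and 25. The exception was h2az2b on chromosome 10, which codes for the replacement variant H2A.Z, is spliced, and had the lowest log2 fold change of the 13 in the authors' deposited table (1.80, adjusted p = 0.0494, SE 0.81). It lost the call over all genes and on recentred z statistics. Other genes of the same stretches, outside the histone list, moved too, where 1.01% of all tested genes rose and 6.01% of all genes were higher. Between the outermost listed histone genes of chromosome 25 (35045803 to 36362958), 5 of the 63 other genes rose in the authors' deposited table, and 30 were higher and 1 lower at an unadjusted p under 0.05. In the stretch on chromosome 7 (5904020 to 6468611), 1 of 41 other genes rose in the authors' deposited table, zgc:112234 with 3.40 (adjusted p = 0.00121, SE 0.76), and 27 were higher and 0 lower at an unadjusted p under 0.05. The smallest adjusted p of the whole comparison belonged to zgc:114046, just outside the chromosome 25 stretch (35044524 to 35045250). It had a log2 fold change of 3.87 (adjusted p = 1.91e-05, SE 0.72) per the authors' deposited table. The sources used here give these zgc genes no further description, so whether they are histone genes outside the list was not determined.

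The mir-430 genes had positive values throughout, and 5 were called. In the authors' deposited table all 54 measured mir-430 genes had a log2 fold change above 0, from 0.05 to 2.88 with a median of 0.63. They span 16.2 kb of chromosome 4 (28693371 to 28709534). At an unadjusted p under 0.05, 36 were higher (66.7%, against 6.01% of all genes) and 0 lower, and 5 of the 47 with an adjusted p rose (10.6%, against 1.01%). dre-mir-430c-1 at 28707457 to 28707529 led them in the authors' deposited table, with 2.88 (adjusted p = 0.0238, SE 1.21). dre-mir-430a-2 at 28699035 to 28699116 had 2.74 (adjusted p = 0.0289, SE 1.55) per the authors' deposited table. Of the 2 risen mir-430b genes, dre-mir-430b-18 at 28705959 to 28706039 had 2.63 (adjusted p = 0.0312) per the authors' deposited table. The other, dre-mir-430b-10 at 28705347 to 28705427, had 2.48 (adjusted p = 0.0405) per the authors' deposited table. Further loci carry these same symbols and did not pass. The 5th was another of the 18 mir-430c genes, which are all named dre-mir-430c-1. It lay at 28706853 to 28706925 (2.52, adjusted p = 0.0384, SE 1.43 in the authors' deposited table). By family member, 1 of 16 mir-430a, 2 of 20 mir-430b and 2 of 18 mir-430c genes rose, and the risen genes lay among others that did not pass. Over all genes 3 of the 5 kept the call, and on recentred z statistics 2 did, dre-mir-430a-2 and dre-mir-430c-1 at 28707457. The annotated genes are 73 to 82 bases long, and the copies share sequence, so the 54 values do not count as 54 separate observations. Whether reads of the injected microRNA entered these counts was not tested.

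**Figure D2:**
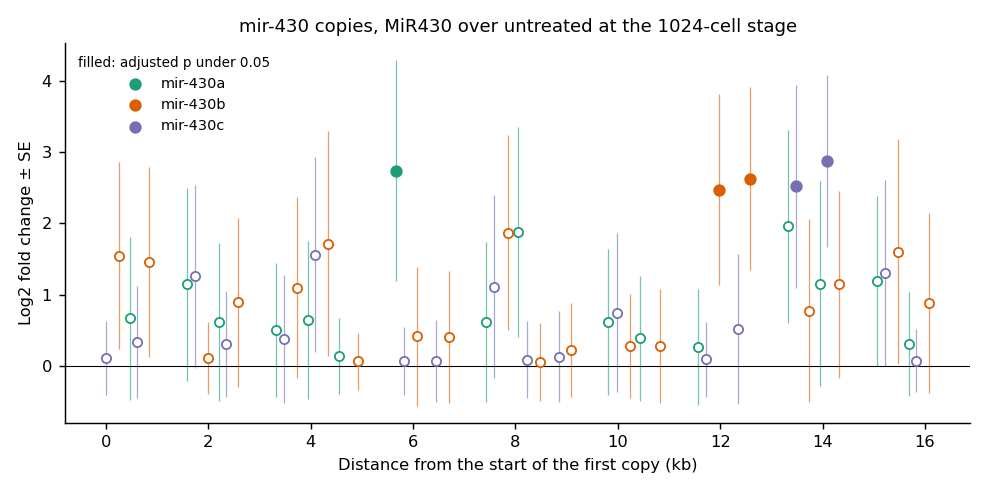
Each point is 1 of the 54 mir-430 genes, by its distance along the cluster (horizontal, kb) and the deposited log2 fold change of MiR430 over untreated embryos at the 1024-cell stage (vertical, bars of 1 standard error). Filled points passed the test. Every value lies above 0, and the 5 genes that rose, between 2.48 and 2.88, stand among uncalled neighbours.

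None of the published targets of miR-430 that were listed passed the test in either direction. The 8 listed targets include the Nodal ligand ndr1 (squint) and the Nodal antagonists lft1 and lft2, which miR-430 is known to dampen in zebrafish. In the authors' deposited table none of the 8 rose or fell. Since only 1.01% of all tested genes rose, 0 calls among 8 do not set the targets apart. At an unadjusted p under 0.05, 2 were higher (25%, against 6.01% of all genes) and 0 lower (against 1.65%). Of the log2 fold changes, 5 were positive and 3 negative. ndr1 had a log2 fold change of 1.63 (adjusted p = 0.0991, SE 1.22) and lft2 one of 1.35 (adjusted p = 0.128, SE 1.27) per the authors' deposited table. The germ plasm mRNA tdrd7a, a target in somatic cells, had -0.03 (adjusted p = 0.833, SE 0.17) per the authors' deposited table. The assay is aimed at RNA made after the injection, so these values do not directly measure the decay of older maternal mRNA. Among 26 maternal oocyte transcripts, 0 rose and 0 fell, and 1 was higher (3.85%) and 1 lower (3.85%) at an unadjusted p under 0.05. The 12 germ plasm genes had no call, with 0 higher and 1 lower (8.33%). That gene was dazl, a germ cell RNA-binding protein, named after its values were seen, with -0.54 (adjusted p = 0.195, SE 0.62) per the authors' deposited table. Nor did any of the 15 microRNA processing and Argonaute genes or the 27 genes of deadenylation, decapping and maternal RNA binding pass the test. ybx1, a maternal RNA-binding protein of the last list, was nearest to it with a log2 fold change of 1.42 and an adjusted p of 0.0602 in the authors' deposited table.

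The 6 falls share no list. cdca7a, whose human counterpart CDCA7 activates the chromatin remodeller HELLS, was the only fall with a mean normalized count of at least 50 (397). Its log2 fold change was -1.12 (adjusted p = 0.0367, SE 0.43) per the authors' deposited table, where embryos given cdk9 mRNA had -0.34 (adjusted p = 0.274) against the same untreated libraries. alg14, a subunit of the enzyme that adds the second sugar in N-glycan assembly, had -2.65 (adjusted p = 0.0258, SE 1.85) per the authors' deposited table. The autophagy protease gene atg4b had -2.55 (adjusted p = 0.0346, SE 1.60) per the authors' deposited table. The acyl-CoA thioesterase gene acot18 (-2.29, adjusted p = 0.0367), the Deltex ubiquitin ligase gene dtx4b (-2.01, adjusted p = 0.0431) and the ADP-ribosyltransferase gene parp12a (-1.84, adjusted p = 0.0423) complete the falls in the authors' deposited table. When the adjustment ran over all 16996 genes, alg14 alone kept its call, and on recentred z statistics all 6 falls did. Over genes with a mean of at least 50, cdca7a kept its call. The other falls lie below that mean and were not in that set.

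Immediate early genes, which cells switch on without new protein synthesis, included 3 rises among 26 measured, with 0 falls. The rises were 13.6% of those tested, against 1.01% of all tested genes. The AP-1 transcription factor genes fosab (3.04, adjusted p = 0.0174, SE 1.18) and fosb (2.75, adjusted p = 0.0174, SE 1.97) rose in the authors' deposited table. The antiproliferative gene btg1 rose by a log2 fold change of 2.57 (adjusted p = 0.0289, SE 1.03) per the authors' deposited table. Its relative tob1a, in no list, rose by 1.86 (adjusted p = 0.0184, SE 0.55) per the authors' deposited table. At an unadjusted p under 0.05, 11 of the 26 were higher (42.3%, against 6.01% of all genes) and 0 lower. Of 24 p53 response genes only cdkn1a rose, which codes for the CDK inhibitor p21, with 2.62 (adjusted p = 0.0309, SE 1.25) per the authors' deposited table. That 1 rise was 5% of those tested, and 6 of the 24 were higher (25%) and 0 lower at an unadjusted p under 0.05.

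The cell cycle list held 3 rises and 0 falls among 37 genes (8.57% of those tested rose, against 1.01% of all tested genes). At an unadjusted p under 0.05, 15 were higher (40.5%, against 6.01% of all genes) and 0 lower. mcm5, a subunit of the replicative helicase, rose by 2.45 (adjusted p = 0.00803, SE 0.63) per the authors' deposited table. The mitotic cyclin gene ccnb3 had 2.74 (adjusted p = 0.00803, SE 0.72) per the authors' deposited table. fbxo5 (Emi1), an inhibitor of the anaphase-promoting complex, had 2.67 (adjusted p = 0.0174, SE 0.87) per the authors' deposited table. Outside the list, a search of the calls by function, made after their values were seen, added ccng2, blm, cenpj, anapc10 and e2f7, among others, with no count of measured genes to read them against. The atypical E2F repressor gene e2f7 had 0.91 (adjusted p = 0.00813, SE 1.64) per the authors' deposited table, a value below its standard error.

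RNA processing genes were also among the risen genes. Of 33 splicing factors measured, 3 rose (9.38% of those tested, against 1.01% of all tested genes) and 0 fell. At an unadjusted p under 0.05, 10 were higher (30.3%, against 6.01% of all genes) and 0 lower. The SR protein gene srsf5a had 2.70 (adjusted p = 0.0101, SE 0.76) per the authors' deposited table. ddx5, an RNA helicase, rose by 1.85 (adjusted p = 0.0405, SE 0.75), and hnrnpa1b, a nuclear RNA-binding protein, by 1.90 (adjusted p = 0.0492, SE 0.86), per the authors' deposited table. Both lost the call when the adjustment ran over all genes or on z statistics recentred on their median, as did khdrbs1a and pcf11. Outside the list, rsrp1, sfpq, rbm4.2, khdrbs1a and the cleavage and termination factor pcf11 rose, named after their values were seen and with no count of measured genes to read them against. Several are abundant. hnrnpa0l, khdrbs1a and ddx5 had mean normalized counts of 1561, 1169 and 1344. So had pnrc2, an mRNA decay cofactor, with 1552 and a log2 fold change of 2.30 (adjusted p = 0.0184, SE 0.72) per the authors' deposited table.

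The translation lists held 3 rises, 3.17% of tested ribosomal protein genes and 4% of tested translation factors, against 1.01% of all tested genes. Of 78 ribosomal protein genes 2 rose and 0 fell per the authors' deposited table, rps19 with 2.83 (adjusted p = 0.0129, SE 0.88) and rps24 with 2.27 (adjusted p = 0.0423, SE 1.08). At an unadjusted p under 0.05, 28 of the 78 were higher (35.9%) and 0 lower, where 6.01% of all genes were higher. rps24 lost the call over all genes and on recentred z statistics. Among 26 translation factors, 1 rose and 6 were higher (23.1%). naca, a subunit of the complex that binds nascent chains at the ribosome, had 2.29 (adjusted p = 0.00803, SE 0.59) per the authors' deposited table.

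Early zygotic transcription factors, the best known products of genome activation, had no call. Of 41 measured, 0 rose and 0 fell per the authors' deposited table. Since only 1.01% of all tested genes rose, 0 calls among the 37 tested do not set these factors apart. At an unadjusted p under 0.05, 17 were higher (42.5%, against 6.01% of all genes) and 0 lower. The median signed z was 1.86, where all tested genes had 0.14. The most abundant was klf17 (Kruppel-like factor, mean normalized count 3213), with a log2 fold change of 0.89 (adjusted p = 0.215, SE 1.17) per the authors' deposited table. Zygotic signalling genes had no call either, which in lists this small does not set them apart. At an unadjusted p under 0.05, 7 of 25 Nodal and mesendoderm genes were higher (28%) and 0 lower. Higher too were 5 of 20 dorsal organizer genes (25%) and 4 of 20 Bmp and ventral genes (20%), with 0 calls in each list. Some lists share members, so their counts are not separate: vox, for example, is an early zygotic factor and a Bmp and ventral gene. Of 22 pluripotency and chromatin activator genes 4 were higher (18.2%) and 0 lower, with 0 calls. Of these, the pluripotency factor gene nanog had 0.49 (adjusted p = 0.265, SE 0.68), and the BET bromodomain gene brd2a had 1.73 (adjusted p = 0.0801, SE 1.09), per the authors' deposited table. Its relative brdt, known in mammals for its role in spermatogenesis, rose by 3.35 (adjusted p = 0.00234, SE 0.81) per the authors' deposited table. P-TEFb and pause release genes (32 measured) had 0 calls and 5 higher (15.6%). Mediator and polymerase II factors (39 measured) had 0 calls and 1 higher (2.56%, below the 6.01% of all genes).

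No marker of the cell layers present at this stage passed the test. Only 10 enveloping layer and 7 yolk syncytial layer genes were tested. Since 1.01% of all tested genes rose, 0 calls among so few do not set the layers apart. Of 12 enveloping layer genes 2 were higher at an unadjusted p under 0.05 (16.7%) and 0 lower, and of 9 yolk syncytial layer genes 2 were higher (22.2%) and 1 lower (11.1%), against 6.01% higher and 1.65% lower of all genes. Of 22 heat shock and chaperone genes and 12 interferon and RNA sensing genes, 0 passed, with 1 and 2 higher. The 37 mitochondrially encoded genes had 0 calls and 0 genes at an unadjusted p under 0.05 in either direction. Markers of blood, muscle and neurons, which have not formed at this stage, were too low to be tested, with 5 measured and 0 given an adjusted p.

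**Figure D3:**
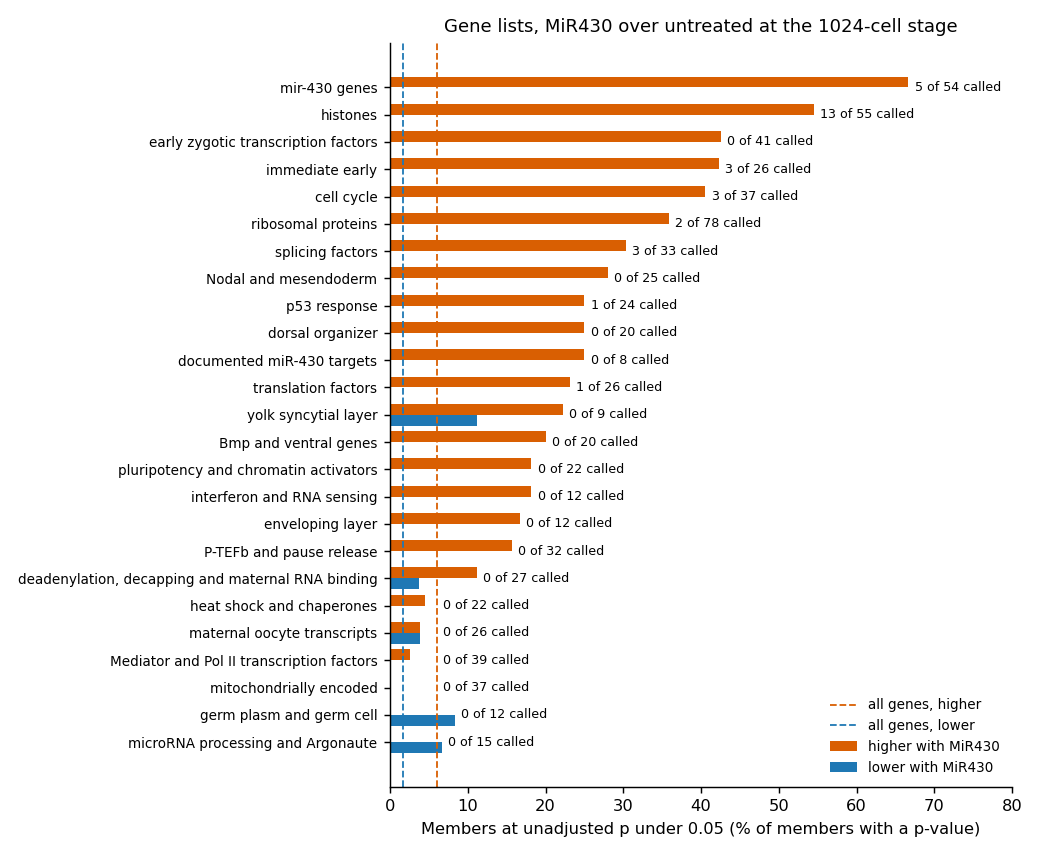
For each gene list, bars give the percent of measured members that were higher or lower at an unadjusted p under 0.05 in the deposited comparison of MiR430 with untreated embryos at the 1024-cell stage; labels beside the bars give the genes called, all of them rises. Dashed lines mark the 6.01% of all genes that were higher and the 1.65% that were lower, and histone and mir-430 genes lie far to its right.

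The largest single changes included genes of no list. cldn23a, a claudin of tight junctions, had the highest log2 fold change of all in the authors' deposited table, 4.54 (adjusted p = 0.00157, SE 1.42), at a low mean normalized count of 11.7. golim4b, a Golgi membrane protein gene, had 4.18 (adjusted p = 0.00357, SE 1.45) per the authors' deposited table, with a mean of 16.4. At higher mean normalized counts, 92.0 and 87.4, were ubqln4, a ubiquilin that shuttles proteins to the proteasome (2.67, adjusted p = 0.00658, SE 0.66), and hic1, a transcriptional repressor (2.98, adjusted p = 0.0174, SE 1.09), per the authors' deposited table. Of the 109 rises, 31 belonged to any list, 51 had a mean normalized count of at least 50 and 23 had an adjusted p under 0.01.

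**Figure D4:**
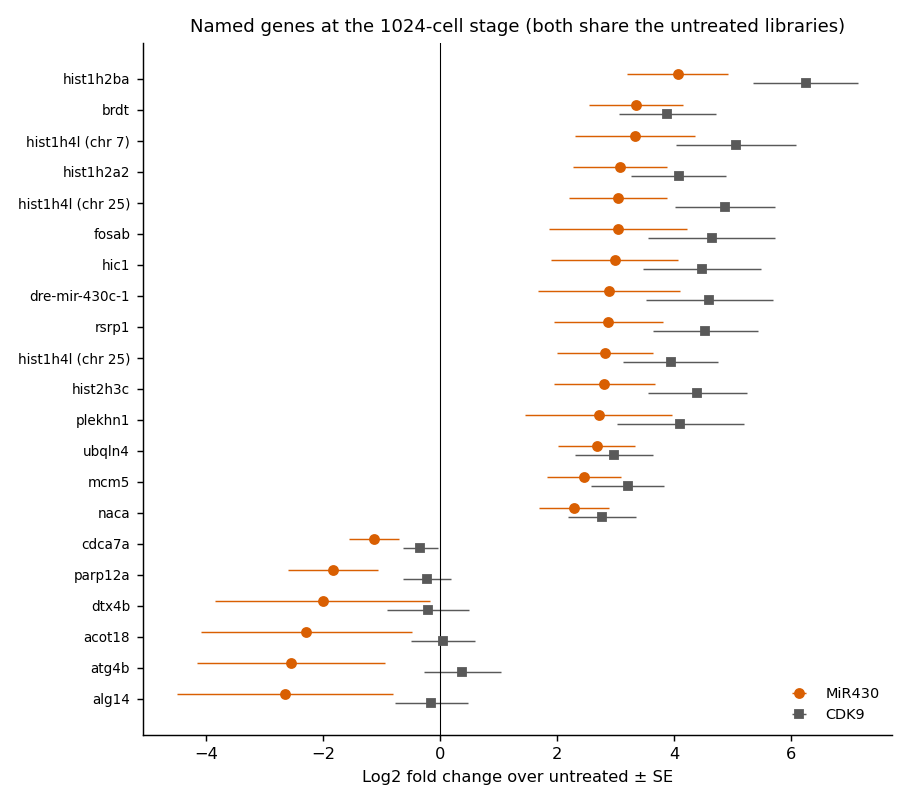
Points are deposited log2 fold changes of MiR430 over untreated embryos at the 1024-cell stage for 21 called genes, namely the 15 rises named for the size or the adjusted p of their change at a mean normalized count of at least 50, and all 6 falls, with bars of 1 standard error, and squares are the values of embryos given cdk9 mRNA against the same untreated libraries. The rises shown run from naca at 2.29 to hist1h2ba at 4.05, and the falls from cdca7a at -1.12 to alg14 at -2.65 (SE 1.85).

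The calls were also counted by position. On the long arm of chromosome 4 (from 27 Mb), which holds many zinc finger genes, 15 of 327 tested genes rose in the authors' deposited table (4.59%, against 1.01% of all tested genes) and 0 fell. There, 19.3% of genes were higher at an unadjusted p under 0.05 (136 genes, against 6.01% of all genes) and 2 genes were lower. Without the mir-430 genes the arm had 10 rises among 280 tested genes (3.57%) and 100 higher genes, so the cluster accounted for 5 of the 15. Of 165 genes with a znf symbol on the arm 4 rose, among them znf1109 (2.94, adjusted p = 0.0241, SE 1.41) and znf1051 (2.76, adjusted p = 0.0289) per the authors' deposited table, and 40 were higher and 0 lower at an unadjusted p under 0.05. These zinc finger genes resemble each other, so reads may again be shared. The rest of chromosome 4 had 2 rises and 1 fall among 245 tested genes. Chromosome 25 had 13 rises among 376 tested genes (3.46%), 6 of 350 without the listed histones, and chromosome 7 had 11 among 586 (1.88%), 6 of 569 without them. Of the 6 on chromosome 25, 5 lay in its histone stretch and zgc:114046 just outside it. Of the 6 on chromosome 7, 1 lay in its histone stretch. Chromosomes 8, 12 and 17 and the mitochondrial genome had 0 rises.

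Short genes were called more often than long ones. Of 277 tested genes spanning under 1 kb, 24 rose in the authors' deposited table (8.66%), while of 802 tested genes over 100 kb 0 rose. Between these, 21 of 1110 rose at 1 to 5 kb, 48 of 4474 at 5 to 20 kb, 15 of 2839 at 20 to 50 kb and 1 of 1246 at 50 to 100 kb. The share of genes that were higher at an unadjusted p under 0.05 ran from 25.4% under 1 kb through 9.84%, 6.59%, 3.51% and 1.95% to 1.72% over 100 kb. Over all genes the share that were lower went the other way, from 0% to 2.17%. The median span of the risen genes was 6.50 kb, where that of tested genes was 17.6 kb. Histone and mir-430 genes fill much of the shortest class. Without the listed histone, mir-430 and mitochondrial genes, a choice made after seeing the data, 7 of 153 tested genes under 1 kb rose and 84 were higher with 0 lower. Of these, 5 rises and 53 of the higher genes lay in or within 10 kb of the histone stretches of chromosomes 7 and 25. Away from them 2 of 79 tested genes under 1 kb rose (CR788281.2 and CABZ01002523.4, both with a log2 fold change below its standard error), and 31 were higher (8.33%) and 0 lower. With the same genes left out, 9.48% were higher at 1 to 5 kb and 6.57% at 5 to 20 kb. By this share the shortest class did not exceed the next once those genes were left out. The share counts all genes with a p, and only 79 of the 372 under 1 kb were tested. Among tested genes the median signed z was 1.56 under 1 kb and 0.48 at 1 to 5 kb, and 2.53% and 1.83% rose. The median of the mean normalized count also differed with span, from 4.16 under 1 kb to 13.8 at 20 to 50 kb. Among genes with a mean normalized count of 50 to 200, 71.6% were higher under 1 kb, then 35.1%, 14.0%, 5.48%, 2.59% and 1.79% over 100 kb. The share lower in that range did not go up steadily with span, at 0%, 1.99%, 1.84%, 2.44%, 1.44% and 0.60%. Of the 61 genes under 1 kb in that range outside the histone, mir-430 and mitochondrial lists, 44 were higher. These were 36 of the 50 in or within 10 kb of the histone stretches and 8 of the other 11 (72.7%). Away from the stretches and outside the lists, 33.6% of genes at 1 to 5 kb in that range were higher. Whether unlisted genes of the stretches are histone genes without a histone symbol was not tested. Since the mean pools the injected libraries, a gene can enter this range through a high value after injection, so the classes are not matched on the untreated level. Single-exon nuclear genes had 27 rises among 309 tested, and multi-exon genes 82 among 10402. Without the listed histone and mir-430 genes, single-exon genes had 10 rises among 217 tested (4.61%). Among these, the risen zgc:112234 and zgc:171759 genes lay in the histone stretches.

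**Figure D5:**
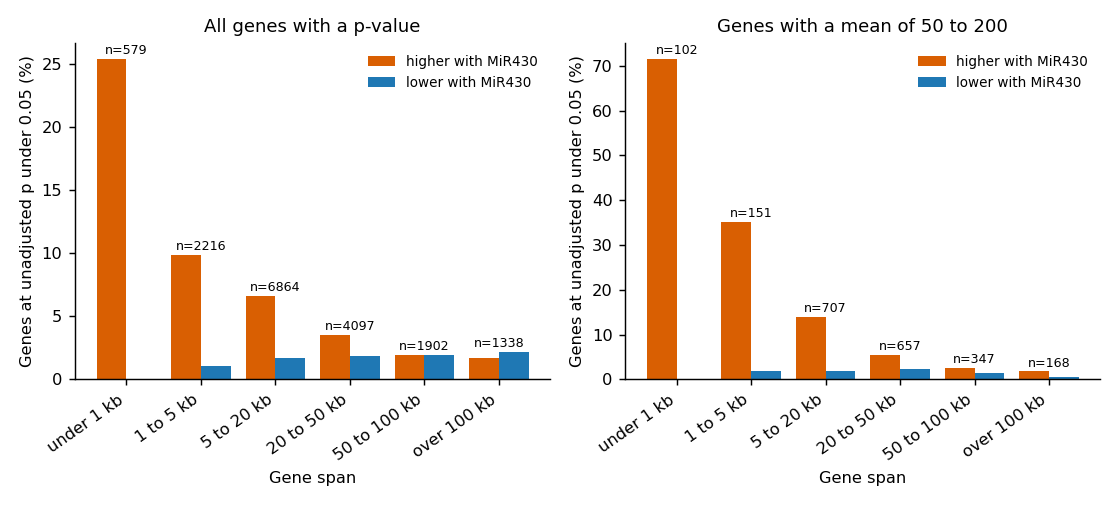
Percent of genes higher or lower at an unadjusted p under 0.05 in MiR430 embryos at the 1024-cell stage, by class of gene span (horizontal), for all genes (left) and for genes with a mean normalized count of 50 to 200 (right), with the number of genes above the bars. On the left the share of higher genes goes down from 25.4% under 1 kb to 1.72% over 100 kb, and on the right from 71.6% to 1.79%, with the histone and mir-430 genes included.

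The calls were also counted by the pooled mean, which the change itself helps to set. Of 6089 tested genes with a mean normalized count of 10 to 50, 54 rose, of 2132 at 50 to 200 42 rose, of 206 at 200 to 1000 5 rose, and of 52 over 1000 4 rose. Under a mean of 10, 4 of 2269 rose and 3 fell. A further 6248 genes had a p but no adjusted p, all with a mean under 10, and were not called either way.

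At the 256-cell stage the same injection gave few calls, in libraries that share no sample with the 1024-cell comparison. The pooled mean, and perhaps the authors' fit, still covers the libraries of both stages. There 4 of 12373 tested genes rose (0.0323%), of 7 calls in all, and 0 of the 109 genes were among the rises. At an unadjusted p under 0.05, 9 of the 109 were higher (8.26%) and 3 lower at the 256-cell stage, against 2.15% higher among all genes tested at 1024 cells. The 9 include hist1h4l copies, fosab, btg1, hic1 and dre-mir-430b-10. Of all 54 mir-430 genes, 19 had an unadjusted p under 0.05 at 256 cells, and 0 were called. That count takes both directions, and no share of all genes was counted the same way. Their median signed z there was 1.63, where all tested genes had 0, and the copies are not separate observations. The gene esyt1a rose at 1024 cells by a log2 fold change below its standard error (1.85, SE 1.86). That call was lost over all genes and on recentred z statistics. At 256 cells esyt1a was called as lower. The deposited fold changes of that comparison are shrunk to near 0 for most genes (median standard error 0.0248) and are not used as sizes. Of the 6 falls, alg14 and cdca7a were lower at an unadjusted p under 0.05. The share of all genes lower at 256 cells was not counted, so these counts of lower genes have no background to be read against. Whether the response differs between the stages was not tested, since no library values could be used.

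Embryos given cdk9 mRNA at the 256-cell stage likewise share no library with the comparison described. The pooled mean includes their libraries, however, and the authors' fit may too. Genes high in these embryos have a higher mean and so more readily received an adjusted p under MiR430. The shares below are therefore not an independent check. Of the 109 genes, 52 were higher there at an unadjusted p under 0.05 (47.7%, against 12.4% of all genes tested at 1024 cells) and 0 lower. In the authors' deposited table of that comparison 35 of 107 with an adjusted p rose (32.7%), against 5.04% of all genes tested in it. The immediate early gene fosab had 7.25 (adjusted p = 4.16e-05) and btg1 had 7.91 (adjusted p = 1.33e-06) per the authors' deposited table of that comparison. hist1h2ba, the highest histone gene under MiR430, did not pass there (0.86, adjusted p = 0.127 in the authors' deposited table). cldn23a had 0.09 (adjusted p = 0.865) there in the authors' deposited table.

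Embryos given cdk9 mRNA at the 1024-cell stage were set against the same 3 untreated libraries as the MiR430 embryos, so a deviation of those libraries enters both comparisons, and the values are only set side by side. In the authors' deposited tables the share of tested genes that rose was 5.89% with cdk9 mRNA (690 of 11724) and 1.01% with MiR430. The deposited fold changes look shrunken, perhaps unequally between the 2 comparisons, so gaps in size are not read as differences in effect. For example, e2f7 had 0.91 (adjusted p = 0.00813) with MiR430 and 10.8 (adjusted p = 0.000285, SE 8.43) with cdk9 mRNA in the authors' deposited tables. hist1h2ba had 4.05 with MiR430 and 6.25 with cdk9 mRNA, and brdt had 3.35 and 3.88, in the authors' deposited tables. mcm5 had 2.45 and 3.20, and ccnb3 had 2.74 and 2.45, in the same order in the authors' deposited tables. fxr1, an RNA-binding protein related to FMRP, rose with MiR430 (1.74, adjusted p = 0.0423) and had 1.04 with cdk9 mRNA (adjusted p = 0.0908) per the authors' deposited tables, and its MiR430 call was lost over all genes and on recentred z statistics. The list counts stood side by side in the authors' deposited tables at 13 and 37 rises for histones, 5 and 23 for mir-430 genes, 0 and 12 for early zygotic factors, and 2 and 14 for ribosomal proteins. The difference between the injections was not tested.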

How the data were processed

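Labelled RNA was captured from whole embryos in 6 groups of 3 biological replicates. Per the submitters' processing notes, Trimmomatic, HISAT, SAMtools, Picard, featureCounts and DESeq2 were used with the build GRCz11; the sources used here give no versions. The 18 count columns the authors deposited match no sample label and were not used, so depth per library, values per library and the planned count model are not given; only its gene symbols, exon lengths, strands and coordinates were used. The 4 deposited comparison tables give a mean normalized count (a signal averaged by the authors over all libraries), log2 fold changes with standard errors, which look shrunken (small p-values stand beside fold changes close to 0), and p-values with adjusted p-values. Their tests measure the spread between replicates, which may be that of all 6 groups, since the authors' fit may have used all 18 libraries.

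A gene rose or fell at a deposited adjusted p under 0.05 according to whether its log2 fold change was above or below 0. A signed z was computed from the deposited p-value and that sign. Genes were grouped by 26 lists, chromosome, span and mean. Some genes, such as lft2, vox, klf17 and brd2a, belong to more than 1 list. Members and lists were chosen with earlier results of these data known. A Benjamini-Hochberg adjustment was tested on simulated data and rerun over all genes, over genes with a mean of at least 50, and on recentred z. Genes named were cdk9, mir-430 genes, the 12 largest rises and falls and the 8 of smallest adjusted p per direction (symbol given, mean at least 50), per list up to 4 called members or the 2 most abundant, and per span or mean class the call of smallest adjusted p. Other genes named (such as zgc:114046, zgc:112234, tob1a, e2f7, fxr1, ndr1, tdrd7a, dazl, ybx1, znf1109, znf1051 and the falls besides cdca7a and alg14) were chosen after their values were seen. Python 3.11.15, numpy 2.4.6, pandas 2.3.3, scipy 1.17.1 and matplotlib 3.10.9 were used.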

Additional observations from a re-analysis of the deposited data

How the results depend on the processing

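The count of 109 rises and 6 falls became 80 and 1 when the adjustment ran over all genes, 90 and 1 where only genes at a mean of 50 or more entered, 77 and 7 with recentred z statistics, 23 and 0 at an adjusted p under 0.01, 214 and 19 at one under 0.1, and 21 and 0 by the authors' own call column. Only 51 of the 109 rises and 1 of the 6 falls have a mean of at least 50. All of these kept the call in that setting, and its other rises were new. Without the long arm of chromosome 4 the count was 86 and 6. The 5 risen mir-430 genes became 3 over all genes, 2 recentred, 0 at 0.01 and 10 at 0.1. The 13 histones became 10, 10, 4 and 15 under the same 4 settings. The 24 rises under 1 kb became 6 at 0.01 and 42 at 0.1. They became 7 without the listed histone, mir-430 and mitochondrial genes, and 2 when all genes in or within 10 kb of the histone stretches were left out too. The last 2 settings were chosen after seeing the data. Early zygotic factors had 1 rise over genes with a mean of at least 50 and 2 at an adjusted p under 0.1. Of the called genes, 81 kept the call over all genes and 83 recentred. Among named genes that lost it in both were pcf11, ddx5, hnrnpa1b, khdrbs1a, rps24, fxr1, anapc10, cenpj, esyt1a, h2az2b and hist1h2a6. brd2a passed over genes with a mean of at least 50.

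No paired analysis was possible because the columns with library values match no sample label; leaving out each replicate, other normalizations and the count models were not run for the same reason. Low counts limit the 6248 genes that had a p but no adjusted p. Near-identical copies limit histone, mir-430 and zinc finger genes.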
